A study of Mus musculus with 36 samples.

Results

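The left ventricle of SHAM-operated mice was compared at 2 times of day, ZT03 and ZT15, on 6 of the 36 arrays of the series, 3 at each time. The arrays were chosen by their titles alone, and no measured value entered the choice. The whole series holds SHAM mice and mice with transverse aortic constriction (TAC), in which surgery tightens the aorta and loads the heart with pressure, each sampled at 6 times with 3 mice a time. All mice were killed 8 weeks after surgery, so both groups compared here had the SHAM operation and carried no constriction, and their disease state is labelled normal. Hearts were snap frozen and total RNA was taken from the left ventricle, with 1 mouse an array, described in the titles as biological replicates. Zeitgeber time (ZT) counts hours, by convention from lights-on, and the times compared are 12 h apart. The light schedule, strain, sex and age are not given in the labels used here.

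Nearly every cell of the heart carries a circadian clock. In it the activators BMAL1 (gene Arntl), CLOCK and NPAS2 bind E-boxes, short DNA sites written CACGTG, and switch on their own repressors, the PER and CRY proteins, together with REV-ERB alpha and beta (Nr1d1 and Nr1d2), which in turn repress Arntl. The PAR bZIP factors DBP, TEF and HLF carry the rhythm on to other genes. In the heart the clock is known to pattern metabolism, ion channels and growth responses, and it acts beside daily signals that reach the heart from outside, such as glucocorticoid hormone, feeding and blood pressure.

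Values are log2 values relative to the probe set's own median over the 18 SHAM arrays, so they show how an array stands against other SHAM arrays and give no level that could be compared between genes. The log base is not given in the sources used here and was taken as 2, and folds rest on that. A difference is ZT15 minus ZT03, a positive one meaning higher at ZT15. It is given with its standard error from limma, which takes the spread of the 18 SHAM arrays, and with a p adjusted by the Benjamini-Hochberg method over 12393 genes. A gene is said to have risen or fallen where that adjusted p was under 0.05. With 3 arrays a time, precision is limited throughout.

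Since values are relative, the markers of the tissue can show shifts between arrays and not their level. The means of 12 cardiomyocyte markers lay between -0.07 and 0.03 on the 6 arrays, and none of the 12 passed the test between the times. Of the 19 cell type marker lists, 3 held a gene that passed, 1 gene each (Col1a1 among fibroblast markers and Kdr among endothelial markers fell, Cd163 among macrophage markers rose). The ZT03 arrays stood apart in some lists, replicates 2 and 3 the most. Markers of cell types that the ventricle should hold little of (neutrophil, B cell, skeletal muscle, Schwann and neuronal) were averaged. Their mean was 0.11 and 0.15 on ZT03 replicates 2 and 3, 0.04 on ZT03 replicate 1 and -0.04, 0.01 and 0.01 on the ZT15 arrays. This mean, used below as a covariate, was chosen after the data were seen. Within it, skeletal muscle markers were higher on ZT15 replicates 2 and 3 (0.06 and 0.08) than on ZT03 replicate 1 (-0.07). Of lists outside it, mesothelial, airway and erythroid markers were highest on ZT15 replicates 2, 1 and 3 (0.16, 0.175 and 0.26). T cell and thymocyte markers were highest on ZT03 replicate 3 (0.13 and 0.05). In the neutrophil list alone, ZT03 replicate 1 was the highest (0.24, against 0.12 and 0.20 for replicates 2 and 3). All 7 measured markers were lower at ZT15, 6 of them at an unadjusted p under 0.05, and none passed after adjustment. Of all genes 13% were lower at such an unadjusted p. Of the 6 arrays ZT03 replicate 3 also had the highest SD over genes, 0.159. Genes with little known expression in heart were among those that fell, such as Pth, the parathyroid hormone gene (-0.32 ± 0.06, adjusted p = 0.00435), and Tssk2, a testis-specific kinase gene (-0.33 ± 0.08, adjusted p = 0.0218). They were picked after their values were seen. White adipocyte markers moved too: their mean was -0.16, -0.31 and -0.07 at ZT03 and 0.54, -0.34 and 0.50 at ZT15. Adipoq, the fat cell hormone gene, was -0.71, -1.41 and -0.13 at ZT03 and 1.87, -1.53 and 1.68 at ZT15. What part these markers have in the results was not tested beyond the covariate fits given below. The mean of the scarce cell type markers was higher on every ZT03 array than on every ZT15 array. A fit with that mean as a covariate therefore cannot fully separate these markers from the time of day.

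**Figure D1:**
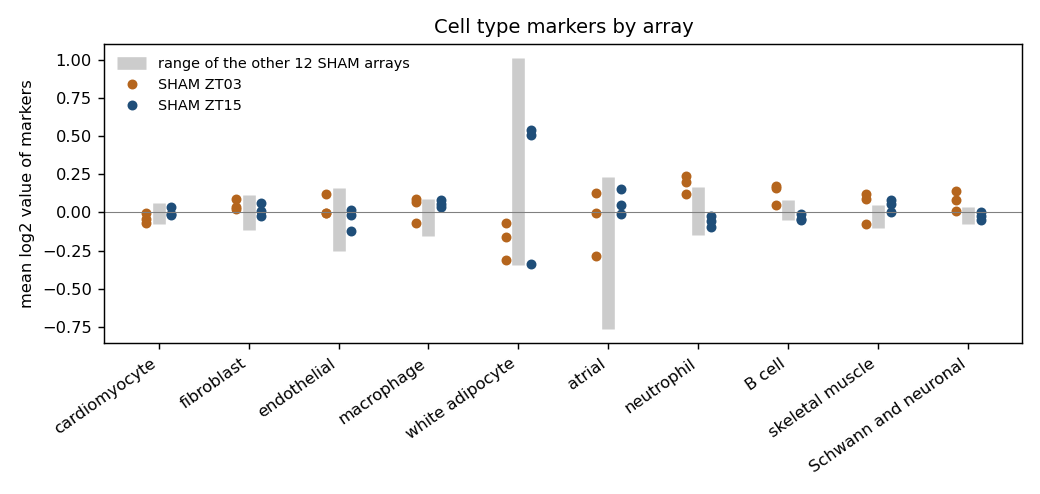
Mean log2 value of the markers of 10 cell types (vertical axis) on each of the 6 SHAM arrays compared, brown for ZT03 and blue for ZT15, with a grey bar for the range of the other 12 SHAM arrays. ZT03 arrays reach above the grey bar for neutrophil, B cell, skeletal muscle and Schwann and neuronal markers, 2 ZT15 arrays do so for skeletal muscle, and 2 of the 3 ZT15 arrays lie at 0.50 or above for white adipocyte markers.

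Across the genome, 406 of 12393 genes (3.28%) differed between ZT03 and ZT15. Of these, 214 (1.73% of genes) were higher at ZT15 and 192 (1.55%) were lower. These shares of all genes are the background for the counts of the gene lists below. The lists and their members were chosen with earlier results of these data known. The median size of a called difference was 0.32, and 66 genes changed by a fold of at least 1.5, 47 of them higher and 19 lower. A fold of at least 2 was reached by 17 genes, 13 higher and 4 lower. Over all genes the median difference was -0.04, so that more genes lay lower at ZT15 than higher before any test, and the unadjusted p was under 0.05 for 932 genes that were higher (7.52%) and 1612 that were lower (13%). The arrays of both times did not overlap for 405 of the 406, against 7.76% of all genes with every ZT15 array above every ZT03 array and 16.7% the other way. Since the 406 were called on these same arrays, a lack of overlap adds no support, here or for single genes below. The share of higher genes among those called was 52.7%. It was 65.2% after quantile normalization (330 called) and 68.1% after centring each array on its median (382 called), settings that brought the median of all genes to -0.01. The count was 1235 without ZT03 replicate 1, 229 without ZT03 replicate 3, 211 without ZT15 replicate 2 and 240 without ZT15 replicate 3. It was 88 with the mean of the markers of scarce cell types as a covariate, 76 of them among the 406.

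The clock activators stood high at ZT03. Arntl was 0.42, 0.36 and 0.43 at ZT03 and -0.17, -0.10 and -0.35 at ZT15, higher at ZT03 by 1.53-fold (-0.61 ± 0.07, adjusted p = 5.06e-05). All 3 arrays at ZT03 lay above all 3 at ZT15, and the call was lost after quantile normalization (adjusted p = 0.0928). Clock was 0.17, 0.29 and 0.18 at ZT03 and -0.14, -0.16 and -0.17 at ZT15 and fell by 0.37 on the log2 scale (SE 0.04, adjusted p = 0.000108). Npas2, which can stand in for CLOCK, fell by 0.27 (SE 0.07, adjusted p = 0.0311), and its call was lost when any 1 array other than ZT03 replicate 1 was left out. So 3 of the 5 measured activators fell and none rose, with a median difference of -0.27. Of all genes 1.55% fell and 1.73% rose, with a median of -0.04. Rora, which activates Arntl, differed by 0.13 ± 0.05 and Arntl2 by -0.02 ± 0.06, neither passing the test.

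The repressors divided between both times. Nr1d1 (REV-ERB alpha) was the only measured repressor to fall, with 0.59, 0.77 and 0.58 at ZT03 and -0.31, -0.42 and -0.15 at ZT15 (-0.94 ± 0.08, adjusted p = 3.52e-06, 1.92-fold). Its close relative Nr1d2 (REV-ERB beta) rose instead, with -0.12, -0.48 and -0.77 at ZT03 and 0.24, 0.32 and 0.21 at ZT15 (0.71 ± 0.11, adjusted p = 0.00087). Replicate 1 at ZT03 lay above the other ZT03 arrays for Nr1d2 but below every ZT15 array. Per2, whose protein enters the nucleus to shut off CLOCK and BMAL1, was -0.51, -0.43 and -0.30 at ZT03 and 0.36, 0.64 and 0.42 at ZT15 (0.89 ± 0.07, adjusted p = 1.22e-06, 1.85-fold). Per3 rose by 0.22 ± 0.05 (adjusted p = 0.0172) and Cry2 by 0.38 ± 0.08 (adjusted p = 0.00958). Of the 3 Per3 probe sets, 1 differed by 0.59 and the others by 0.06 and 2.4e-06. The Per3 call was lost without ZT03 replicate 2 and without ZT15 replicate 2 or 3, and the Cry2 call without ZT03 replicate 3. In all, 4 of 10 measured repressors rose and 1 fell, with a median difference of 0.17, against 1.73%, 1.55% and -0.04 for all genes. The number that rose was 2 after quantile normalization and 1, Per2, with the covariate for scarce cell types.

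The other repressors did not pass, and some of them changed strongly between other times. Per1 was 0.06, -0.31 and -0.09 at ZT03 and 0.10, 0.16 and -0.12 at ZT15, a difference of 0.16 ± 0.12 with overlapping arrays, while in the same hearts ZT19 minus ZT07 was -0.96 and ZT23 minus ZT11 was -0.83. Nfil3, which encodes E4BP4, a repressor at the sites that DBP activates, differed by -0.08 ± 0.10, against 1.02 for ZT19 minus ZT07. Its ZT03 replicate 3, at 0.41, lay above all 5 other arrays. Bhlhe40 differed by -0.04 ± 0.08 and by -0.55 for ZT19 minus ZT07. Cry1 differed by 0.18 ± 0.06 (adjusted p = 0.125) and Bhlhe41 by -0.02 ± 0.06. The arrays of ZT03 and ZT15 were thus apart for Per2 and Arntl and overlapped for Per1, Nfil3 and Bhlhe40.

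Most genes of the clock output list rose, a list that also holds genes acting on the clock itself (Cipc, Csnk1d and Csnk1e). Of 9 measured, 7 rose, none fell, the count of 7 was the same without any 1 of the 6 arrays, and the median difference was 0.56 against -0.04 for all genes. Dbp was -0.53, -0.66 and -0.94 at ZT03 and 0.48, 0.54 and 1.03 at ZT15, a 2.62-fold rise (1.39 ± 0.15, adjusted p = 2.32e-05), with no overlap of the arrays. The Dbp call was lost when eBayes took a trend of the spread on the gene's mean value (adjusted p = 0.449). The values are centred, so that mean is no expression level. Hlf was -0.60, -0.48 and -0.48 at ZT03 and 0.13, 0.24 and 0.40 at ZT15 (0.77 ± 0.08, adjusted p = 1.03e-05), and Tef was -0.42, -0.45 and -0.31 at ZT03 and 0.18, 0.18 and 0.15 at ZT15 (0.56 ± 0.05, adjusted p = 4.62e-06). All 3 PAR bZIP factors were therefore higher at ZT15 in every array. Of the 3 Tef probe sets, 1 differed by only 0.04. Usp2, which encodes a deubiquitinase, was -0.66, -0.66 and -0.65 at ZT03 and 0.06, 0.32 and 0.23 at ZT15 (0.86 ± 0.08, adjusted p = 6.95e-06). Tspan4, a tetraspanin gene, rose by 0.76 ± 0.07 (adjusted p = 3.97e-06). The cell cycle kinase gene Wee1 rose by 0.44 ± 0.08 (adjusted p = 0.00618), and Cipc, an inhibitor of CLOCK, by 0.38 ± 0.05 (adjusted p = 0.000316). The casein kinase genes Csnk1d and Csnk1e, whose products phosphorylate PER, differed by 0.05 ± 0.04 and 0.11 ± 0.07 and did not pass.

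**Figure D2:**
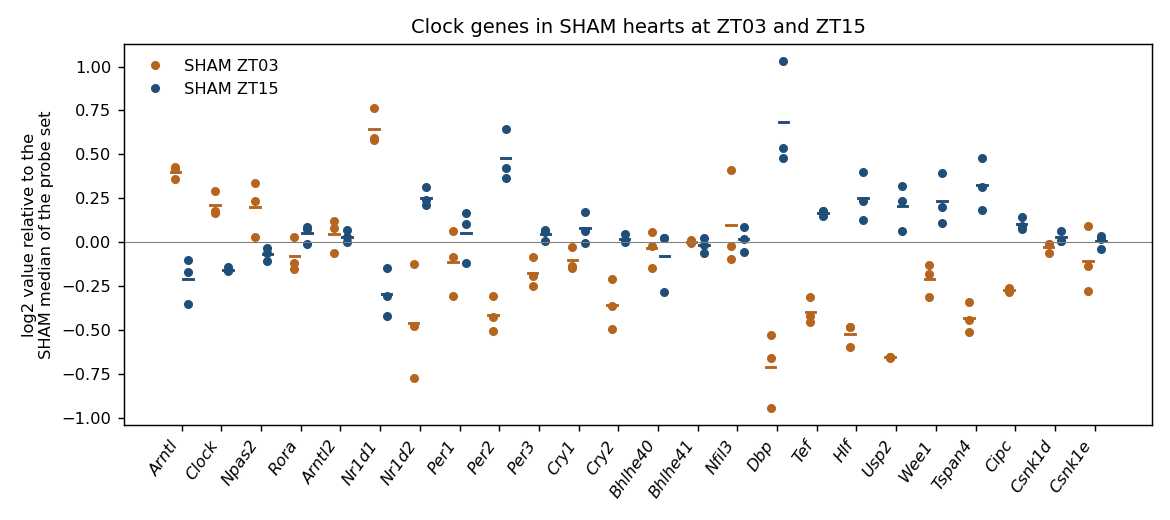
Log2 value relative to the SHAM median (vertical axis) of 24 clock genes (horizontal axis) on each SHAM array, brown for ZT03 and blue for ZT15, with the mean of 3 arrays as a bar. Arntl, Clock, Npas2 and Nr1d1 lie higher at ZT03. The 7 genes of the clock output list from Dbp to Cipc lie higher at ZT15, and Per1, Bhlhe40, Bhlhe41 and Nfil3 overlap.

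Of the genes that changed, some hold an E-box just before their start. The stretches below come from RefSeq promoter sequence of the mouse build GRCm38.p6. They show up to 40 bases on either side of the E-box in 3 genes of the clock output list that rose. They read 5′ to 3′ on the gene's strand, with CACGTG in capitals.
Tef, chr15:81802506-81802591, plus strand: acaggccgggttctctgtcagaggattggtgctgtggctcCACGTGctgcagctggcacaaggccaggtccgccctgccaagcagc
Cipc, chr12:86947286-86947342, plus strand: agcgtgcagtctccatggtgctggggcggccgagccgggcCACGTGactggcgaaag
Tspan4, chr7:141476289-141476374, plus strand: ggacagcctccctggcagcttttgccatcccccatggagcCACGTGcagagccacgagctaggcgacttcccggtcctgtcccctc
The E-box began 127 bases before the annotated start of Tef, 17 before that of Cipc and 51 before that of Tspan4. A match describes letters and not a bound site. CACGTG, which reads the same on both strands, was found in the 250 bases before the start of 15 of 175 genes that rose (8.57%) and 13 of 146 that fell (8.9%), counting genes with a promoter sequence, against 909 of all 9887 measured genes with one (9.19%). These shares lie close to the background. Of 7 other motifs searched on both strands, the D-box TTATGTAA was found for 2 genes that rose (1.14%) and 1 that fell (0.685%), against 0.627% of all. The cAMP response element TGACGTCA was found for 7 genes that rose (4%) and 7 that fell (4.79%), against 2.53%. The pair of half-sites ACANNNTGT, bound by the glucocorticoid receptor, was found for 14 (8%) and 9 (6.16%), against 5.2%. The E-prime box CACGTT gave 4.57% and 6.16%, against 4.97%, and the ROR element TAGGTCA 2.29% and 2.74%, against 2.22%. The forkhead site GTAAACA gave 3.43% and 4.11%, against 2.91%, and the heat shock element 0.571% and 0.685%, against 0.465%. None of these shares was tested.

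Of 20 measured genes known to be induced by glucocorticoids, 11 rose, none fell, 9 did not pass and the median difference was 0.39. Of all genes 1.73% rose and 1.55% fell, with a median of -0.04. Zbtb16, a zinc finger transcription factor gene, was -0.61, -0.63 and -0.83 at ZT03 and 0.34, 0.90 and 0.93 at ZT15, a 2.67-fold rise (1.41 ± 0.18, adjusted p = 0.00014). Every ZT15 array lay above every ZT03 array, with replicate 1 the lowest of the ZT15 group. The 2 probe sets of Zbtb16 differed by 2.27 and 0.56. Tsc22d3, which encodes the anti-inflammatory protein GILZ, was -0.29, -0.48 and -0.64 at ZT03 and 0.26, 0.53 and 0.33 at ZT15 (0.84 ± 0.10, adjusted p = 7.17e-05). Of the 3 Tsc22d3 probe sets, 1 differed by 0.08 and the others by 1.05 and 1.39. Fkbp5, a co-chaperone that lowers the receptor's affinity for hormone, rose by 0.86 ± 0.21 (adjusted p = 0.0327), with -0.35, -0.59 and -0.41 at ZT03 and 0.07, 0.57 and 0.60 at ZT15. Ddit4 (REDD1), an inhibitor of mTORC1, was -0.13, -1.17 and -0.97 at ZT03 and 0.40, 0.84 and 0.12 at ZT15 (1.21 ± 0.26, adjusted p = 0.0123), and its call was lost without ZT03 replicate 2, ZT03 replicate 3 or ZT15 replicate 2. Its ZT03 replicate 1 lay close to ZT15 replicate 3.

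The other glucocorticoid targets that rose have roles in metabolism and metal binding. Cebpb, a transcription factor gene, was -0.46, -0.50 and -0.40 at ZT03 and 0.29, 0.65 and 0.78 at ZT15 (1.03 ± 0.16, adjusted p = 0.00137). Glul (glutamine synthetase) rose by 0.61 ± 0.09, Sult1a1, a sulfotransferase gene, by 0.64 ± 0.12, and the kinase gene Sgk1 by 0.44 ± 0.10. The metallothionein genes Mt1 and Mt2 rose by 0.36 ± 0.07 and 0.42 ± 0.10. Klf15, which encodes a regulator of amino acid and lipid use in heart, rose by 0.50 ± 0.12 (adjusted p = 0.0229), a call lost without ZT03 replicate 2 or 3 and without ZT15 replicate 2 or 3. Klf9 and Per1, also known targets, differed by 0.19 ± 0.08 and 0.16 ± 0.12 and did not pass, nor did Dusp1 (0.20 ± 0.19). The list's count was 6 without ZT03 replicate 3 or ZT15 replicate 2, 7 without ZT03 replicate 2, 4 with the mean of the markers of scarce cell types as a covariate (median 0.31) and 2 without both ZT03 replicates 2 and 3 (median 0.39).

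E-boxes also stood before 2 of these genes, shown with the marks as above.
Fkbp5, chr17:28486273-28486358, minus strand: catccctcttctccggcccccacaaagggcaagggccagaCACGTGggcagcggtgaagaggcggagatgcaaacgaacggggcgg
Klf15, chr6:90462326-90462393, plus strand: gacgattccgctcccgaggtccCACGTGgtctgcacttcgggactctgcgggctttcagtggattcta
The E-box began 169 bases before the start of Fkbp5, and that of Klf15 began 228 bases before, the first of 2 in its window.

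The largest rise among genes that passed was that of G0s2, which encodes an inhibitor of adipose triglyceride lipase. It was -0.42, -0.41 and -0.74 at ZT03 and 0.91, 0.86 and 1.64 at ZT15, a 3.16-fold difference (1.66 ± 0.16, adjusted p = 1.03e-05), with no overlap. Of 19 measured genes of triglyceride storage and lipolysis, 4 rose and none fell, with a median difference of 0.12. Dgat2, which makes triglyceride, was -0.24, -0.24 and -0.44 at ZT03 and 0.24, 0.17 and 0.19 at ZT15 (0.51 ± 0.06, adjusted p = 4.30e-05). The lipid droplet coat genes Plin4 and Plin3 rose by 0.51 ± 0.09 and 0.37 ± 0.08, the latter lost without ZT03 replicate 3 and without ZT15 replicate 2 or 3. Pnpla2, the lipase that G0S2 inhibits, differed by 0.12 ± 0.06 (adjusted p = 0.237).

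Mid1ip1, whose product activates acetyl-CoA carboxylase, was -0.56, -0.91 and -0.85 at ZT03 and 0.44, 0.27 and 0.70 at ZT15, a 2.36-fold rise (1.24 ± 0.12, adjusted p = 6.95e-06). None of 16 measured genes of fatty acid synthesis passed the test, although some had large means. Fasn (fatty acid synthase) was -0.22, -0.49 and -0.24 at ZT03 and 1.26, -0.75 and 2.38 at ZT15, and Scd1 (a desaturase) was 0.01, -0.76 and -0.25 at ZT03 and 1.38, -0.51 and 2.94 at ZT15. Both were high on ZT15 replicates 1 and 3 and low on replicate 2, as were the white adipocyte markers above. At ZT15, G0s2 was also lowest on replicate 2, at 0.86, though that lay above every ZT03 array. Mid1ip1 was lowest on replicate 2 as well. What part fat cells have in these values was not tested beyond the covariate fit that follows. With marker means of atrium and white fat as covariates, the triglyceride list again had 4 genes that rose. With the covariate for scarce cell types, and without both ZT03 replicates 2 and 3, it had 2.

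Genes of insulin and FOXO signalling included 5 that rose of 23 measured, none fell, and the median difference was -0.02, near that of all genes. Pik3r1, a regulatory subunit of phosphoinositide 3-kinase, was -0.50, -0.47 and -0.75 at ZT03 and 0.33, 0.64 and 0.29 at ZT15 (0.997 ± 0.14, adjusted p = 0.000316). Sesn1 (sestrin 1, an inhibitor of mTORC1) was -0.01, -0.47 and -0.78 at ZT03 and 0.44, 0.65 and 0.60 at ZT15 (0.99 ± 0.14, adjusted p = 0.000655), and its ZT03 replicate 1 stood above the other 2. Foxo3, a transcription factor gene, rose by 0.41 ± 0.05 (adjusted p = 4.81e-05), though 1 of its 3 probe sets differed by -0.08. Eif4ebp1, which encodes a brake on translation, rose by 0.29 ± 0.05, and Klf15 is described above. The count of 5 was 1 with the covariate for scarce cell types and 2 without both ZT03 replicates 2 and 3. No gene passed among the 20 measured of fatty acid uptake and oxidation (median 0.03), the 19 of the tricarboxylic acid cycle (median 0.08) and the 36 of oxidative phosphorylation (median 0.07). When ZT03 replicate 1 was left out, the numbers that rose were 2, 2 and 3. Of 19 glycolysis genes, Pgam1, a phosphoglycerate mutase gene, rose by 0.61 ± 0.12 and Slc16a1, a lactate transporter gene, by 0.34 ± 0.08. The Pgam1 call was lost without ZT03 replicate 3, and that of Slc16a1 also without any 1 ZT15 array.

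Herpud1 had the smallest p of all genes. It encodes a membrane protein of the endoplasmic reticulum that serves in the disposal of misfolded proteins, and it was -0.62, -0.72 and -0.87 at ZT03 and 0.35, 0.55 and 0.40 at ZT15 (1.17 ± 0.08, adjusted p = 2.88e-07, 2.25-fold). In the list of the unfolded protein response, 2 of 24 rose, 1 fell, and the median was -0.10. Ddit3 (CHOP), a stress-induced transcription factor gene, rose by 0.41 ± 0.07 (adjusted p = 0.00243). Calr (calreticulin), a chaperone of the endoplasmic reticulum, fell by 0.23 (SE 0.06, adjusted p = 0.0425), a call lost without any 1 array other than ZT03 replicate 3. The number that fell was 4 without ZT03 replicate 1, 2 without ZT03 replicate 3 or ZT15 replicate 1 and 0 without any of the other 3. Hspa5 (BiP) differed by -0.24 ± 0.07 (adjusted p = 0.0922). Of 22 heat shock chaperone genes, Dnajb1 (0.60 ± 0.12) and Dnaja1 (0.45 ± 0.10) rose. Both calls were lost without ZT03 replicate 3 or ZT15 replicate 2, and that of Dnaja1 also without ZT15 replicate 1.

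Immediate early genes, which respond within minutes to stimuli, went both ways: of 25 measured, 3 rose and 2 fell, with a median of -0.06. Ier3 was -0.74, -0.68 and -0.68 at ZT03 and 0.43, 0.51 and 0.37 at ZT15 (1.14 ± 0.09, adjusted p = 1.61e-06), with no overlap. Ccn2 (connective tissue growth factor) was -0.11, -0.79 and -0.38 at ZT03 and 0.56, 0.47 and 0.55 at ZT15 (0.95 ± 0.17, adjusted p = 0.00358), and Ier5 rose by 0.45 ± 0.06 (adjusted p = 0.000153). Nr4a1, which encodes the orphan receptor NUR77, fell, with 0.97, 0.55 and 0.87 at ZT03 and -0.07, -0.30 and -0.45 at ZT15 (-1.07 ± 0.26, adjusted p = 0.0311), and its call was lost without ZT03 replicate 3 or any 1 ZT15 array. Ccn1, a relative of Ccn2, fell (-0.44 ± 0.11, adjusted p = 0.041). The number that fell was 3 without ZT03 replicate 1, 1 without ZT03 replicate 2 or ZT15 replicate 1, and 0 without any of the other 3. Fos and Egr1 differed by -0.46 ± 0.27 and -0.74 ± 0.28 and did not pass.

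Several collagen genes fell. Of 28 measured genes of the extracellular matrix 9 fell, none rose, and the median was -0.17. Of all genes 1.55% fell and 1.73% rose, with a median of -0.04. Col3a1, a fibrillar collagen gene, was 0.36, 0.65 and 0.66 at ZT03 and -0.11, -0.38 and -0.19 at ZT15, a 1.72-fold fall (-0.78 ± 0.12, adjusted p = 0.000996). Col15a1, a collagen next to basement membranes, was 0.38, 0.64 and 0.52 at ZT03 and -0.15, -0.32 and -0.17 at ZT15 (-0.73 ± 0.07, adjusted p = 1.03e-05). Loxl1, a lysyl oxidase that cross-links elastin, was 0.19, 0.30 and 0.39 at ZT03 and -0.16, -0.52 and -0.43 at ZT15 (-0.66 ± 0.09, adjusted p = 0.000226). For all 3 the ZT03 arrays lay above every ZT15 array, and ZT03 replicate 1 was the lowest of its group. Col6a3 fell by 0.56, Col6a1 by 0.45, Col6a2 by 0.39, Col1a1 by 0.36, Col5a1 by 0.32 and Col5a2 by 0.26. Col1a2, the partner chain of Col1a1, differed by -0.20 ± 0.10 (adjusted p = 0.272).

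In the basement membrane list, both chains of its main collagen fell and the other 12 genes did not pass. Col4a1 was 0.37, 0.72 and 0.57 at ZT03 and -0.19, -0.32 and -0.22 at ZT15 (-0.80 ± 0.10, adjusted p = 0.000133) and Col4a2 was 0.18, 0.56 and 0.40 at ZT03 and -0.16, -0.48 and -0.22 at ZT15 (-0.66 ± 0.10, adjusted p = 0.000746). Without ZT03 replicate 1 the list had 5 that fell and 1 that rose. Of 10 fibroblast markers 1 fell (Col1a1, which is in both lists), their median was -0.01, and the fibroblast gene Pdgfra differed by -0.07 ± 0.06. Of 9 activated fibroblast markers none passed, with a median of -0.06. Their mean was -0.10, 0.08 and 0.15 at ZT03 and 0.03, -0.003 and -0.04 at ZT15. The SHAM arrays of other times ran from -0.09 to 0.03, so ZT03 replicates 2 and 3 lay above them and replicate 1 below. What part these markers have in the collagen values was not tested. In bulk tissue, fewer cells of a type and less RNA per cell cannot be told apart. The count of matrix genes that fell was 13 without ZT03 replicate 1 and 6 without ZT15 replicate 2. It was 2, with a median of -0.08, with the mean of the markers of scarce cell types as a covariate, and 2 without both ZT03 replicates 2 and 3, with a median of -0.06.

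Genes of 2 inhibitors of the proteases that cut matrix rose. Timp3 was -0.54, -0.53 and -0.48 at ZT03 and 0.30, 0.60 and 0.53 at ZT15, a 1.99-fold rise (0.996 ± 0.07, adjusted p = 7.88e-07). Timp4, the inhibitor best known in heart muscle, was -0.40, -0.85 and -0.73 at ZT03 and 0.25, 0.53 and 0.62 at ZT15 (1.12 ± 0.15, adjusted p = 0.000305). Adam19, a membrane metalloproteinase gene needed in heart valve formation, fell, with 0.95, 0.78 and 0.74 at ZT03 and 0.10, -0.13 and -0.27 at ZT15 (-0.92 ± 0.09, adjusted p = 1.84e-05), with no overlap. Mmp14, a membrane collagenase gene, fell by 0.30 (adjusted p = 0.0081) and Adamts5, an aggrecanase gene, by 0.28 (adjusted p = 0.0338). Of 16 measured genes of TIMPs and metalloproteinases, then, 2 rose and 3 fell. In the TGF-beta and BMP list of 23, Bmp6 (0.46 ± 0.06), Ltbp1 (0.33 ± 0.08) and the inhibitory Smad7 (0.29 ± 0.07) rose and none fell. Smad7 and Ltbp1 lost their calls without ZT03 replicate 2 or 3 or ZT15 replicate 1, Smad7 also without ZT15 replicate 3 and Ltbp1 without ZT15 replicate 2.

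The 2 strongest falls were those of Rrad and Slc41a3. Rrad encodes a small GTPase that holds back L-type calcium channels, and it was 0.18, 0.62 and 0.52 at ZT03 and -0.60, -0.91 and -0.88 at ZT15 (-1.24 ± 0.14, adjusted p = 3.95e-05, 2.36-fold). Slc41a3, a magnesium transporter gene, was 0.67, 0.61 and 0.54 at ZT03 and -0.51, -0.46 and -0.53 at ZT15 (-1.10 ± 0.07, adjusted p = 3.24e-07, 2.15-fold), with no overlap. An E-box stood before Slc41a3 and Adam19 too, which fell, as the same marks show.
Slc41a3, chr6:90618996-90619078, plus strand: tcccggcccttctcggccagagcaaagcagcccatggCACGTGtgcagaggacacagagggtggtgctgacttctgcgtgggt
Adam19, chr11:46054332-46054417, plus strand: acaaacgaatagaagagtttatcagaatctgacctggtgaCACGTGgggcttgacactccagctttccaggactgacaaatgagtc
It began 213 bases before the start of Slc41a3 and 130 before that of Adam19.

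Among genes of heart muscle and its signals, Tcap, which encodes the titin cap of the Z-disc, was -0.16, -0.31 and -0.74 at ZT03 and 0.20, 0.16 and 0.35 at ZT15 (0.64 ± 0.11, adjusted p = 0.00262). Tnfrsf12a, the receptor of the cytokine TWEAK, fell, with 0.51, 0.45 and 0.46 at ZT03 and -0.16, -0.32 and -0.26 at ZT15 (-0.72 ± 0.10, adjusted p = 0.000254). Rcan1, an inhibitor of calcineurin, was 0.24, 0.71 and 0.61 at ZT03 and -0.01, -0.10 and -0.15 at ZT15 (-0.61 ± 0.10, adjusted p = 0.00178), with ZT03 replicate 1 below the other 2. The apelin receptor gene Aplnr was 0.43, 0.75 and 0.64 at ZT03 and -0.01, -0.87 and -0.52 at ZT15 (-1.07 ± 0.19, adjusted p = 0.00415) and its ligand gene Apln fell by 0.27 (adjusted p = 0.0302). The Apln call was lost without ZT03 replicate 2 or 3 and without ZT15 replicate 1 or 2. Ramp2, which encodes a co-receptor of adrenomedullin, rose by 0.40 ± 0.07 (adjusted p = 0.00303). Nppb, a natriuretic peptide gene of the ventricle, was 0.63, 0.75 and 0.99 at ZT03 and 0.36, -0.31 and -0.07 at ZT15 (adjusted p = 0.0515). None of the 16 sarcomere or 18 calcium handling genes passed.

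Of 19 ion channel and connexin genes, 3 potassium channel genes rose and 1 connexin gene fell. Kcna5 was -0.0028, -0.26 and -0.22 at ZT03 and 0.30, 0.56 and 0.27 at ZT15 (0.54 ± 0.12, adjusted p = 0.0228), Kcnh2 (the channel known as hERG) rose by 0.34 ± 0.08 and Kcnj12 by 0.29 ± 0.07. Gja1, the main connexin of the ventricle, was 0.58, 0.01 and 0.05 at ZT03 and -0.17, -0.33 and -0.32 at ZT15 (-0.49 ± 0.12, adjusted p = 0.0329), its ZT03 replicate 1 far above the other ZT03 arrays. All 4 calls were lost when 1 of several arrays was left out: ZT03 replicate 2 or 3 or ZT15 replicate 2 for the potassium channels, ZT15 replicate 3 as well for Kcnh2 and Kcnj12, and any 1 ZT15 array for Gja1. With the covariate for scarce cell types none of the 19 passed.

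The remaining large changes belonged to varied pathways. Aldh1a1, a retinal dehydrogenase gene, was -0.51, -0.62 and -0.85 at ZT03 and 0.46, 0.44 and 0.64 at ZT15 (1.18 ± 0.13, adjusted p = 3.95e-05), and Adh1, an alcohol dehydrogenase gene, rose by 1.01 ± 0.15 (adjusted p = 0.000746). Noct, which encodes nocturnin, rose by 1.14 ± 0.12 (adjusted p = 1.84e-05), and Chd6, a chromatin remodeller gene, by 1.05 ± 0.13 (adjusted p = 0.000179). Tnfaip2 fell by 0.67 and Klhdc8a by 0.62. Smaller changes included receptors of VEGF, a growth factor of vessels. Kdr, its main receptor on endothelium, was 0.10, 0.26 and 0.34 at ZT03 and -0.30, -0.17 and -0.46 at ZT15 (-0.54 ± 0.10, adjusted p = 0.00366), while Flt1, another one, rose by 0.32 ± 0.07 (adjusted p = 0.0193), a call lost without ZT03 replicate 2 or 3 or ZT15 replicate 2 or 3. The ligand gene Vegfc fell by 0.19 (adjusted p = 0.0262), lost without ZT03 replicate 3 or ZT15 replicate 2 or 3. Nampt, the enzyme that limits NAD salvage, rose by 0.51 ± 0.07 (adjusted p = 0.000266).

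Other lists held few genes that passed, many of them resting on single arrays. Of 15 ubiquitin ligase and autophagy genes, Trim54, a muscle ring finger gene, rose by 0.43 ± 0.08 (adjusted p = 0.00606), as did Usp2 above, and both kept their calls without any 1 of the 6 arrays. Fbxo32 (atrogin-1), a ligase gene of muscle wasting, was 0.23, 0.17 and 0.05 at ZT03 and -0.31, -0.11 and -0.27 at ZT15 (-0.38 ± 0.10, adjusted p = 0.039), a call lost without any 1 array other than ZT15 replicate 2. Opa1, which fuses inner mitochondrial membranes, rose by 0.25 ± 0.05 (adjusted p = 0.00541), the only one of 18 genes of mitochondrial biogenesis and dynamics to pass. Srsf5, a splicing factor gene, fell by 0.49 (adjusted p = 0.00507), and none of the 20 cold-inducible and splicing genes rose. After quantile normalization 2 of these rose, and 7 did without ZT03 replicate 1. In the beta-adrenergic list of 19, Adcy6, an adenylyl cyclase gene, rose by 0.38 ± 0.09 and Prkar1a, a regulatory subunit of protein kinase A, fell by 0.24. Both calls were lost without ZT03 replicate 2 or ZT15 replicate 2, and that of Adcy6 also without ZT03 replicate 3 or ZT15 replicate 1. Thra, a thyroid hormone receptor gene, fell by 0.21 (adjusted p = 0.0185), and only the fit without ZT03 replicate 1, of those that left out 1 array, called it again. Slc25a20, the mitochondrial carnitine carrier gene, rose by 0.31 ± 0.07, the cholesterol exporter gene Abca1 by 0.31 ± 0.07 and the ribosomal protein gene Rps9 by 0.26 ± 0.07. Tlr4, a receptor of bacterial lipopolysaccharide, fell by 0.24 and Pgm2, a phosphoglucomutase gene, by 0.18. Each of these 5 had an adjusted p above 0.01 and lost its call without ZT03 replicate 3, among other arrays. No gene passed among 26 of the proteasome (median 0.12), 8 of the cytosolic chaperonin (median 0.11) and 21 of ribosome biogenesis and translation (median 0.05). When ZT03 replicate 1 was left out, the numbers that rose were 5, 1 and 1.

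**Figure D3:**
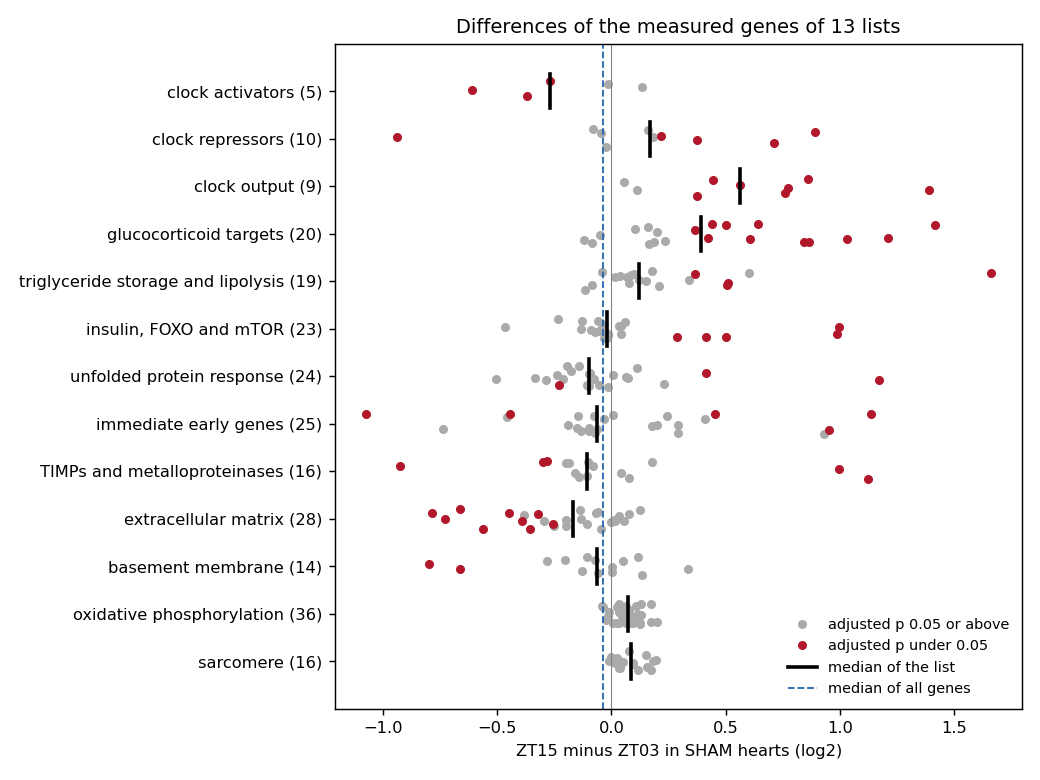
ZT15 minus ZT03 in SHAM hearts (horizontal axis, log2) of each measured gene in 13 lists, with the number measured in brackets. Red points passed at an adjusted p under 0.05, black bars are list medians, and the dashed line is the median of all genes at -0.04. Clock output and glucocorticoid targets lie mostly to the right (medians 0.56 and 0.39), collagen genes of the extracellular matrix list to the left (median -0.17), and no gene of oxidative phosphorylation or the sarcomere passed.

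The comparison was set beside the other pairs of SHAM times that lie 12 h apart. ZT19 minus ZT07 gave 627 genes (5.06%) and ZT23 minus ZT11 gave 204 (1.65%). Of the arrays at these other times, ZT11 replicate 3 stood apart with a thymocyte marker mean of 2.17 and a white adipocyte mean of 1.01, and ZT23 replicate 3 with an airway marker mean of 1.20. They enter the second pair, the means at ZT11 and ZT23, and the spread of the SHAM fit that all these tests share. Their part was tested only by leaving arrays out. Without both of these arrays, 554 genes (271 higher, 283 lower) passed for ZT15 minus ZT03, 404 of them among the 406. The counts moved with single arrays: 353, 380, 391 and 401 for the first without ZT19 replicate 2, ZT07 replicate 2, ZT07 replicate 1 and ZT19 replicate 3, and 108 and 118 for the second without ZT23 replicate 3 and replicate 2. The second was 158 without ZT11 replicate 3. Of the 406 genes called between ZT03 and ZT15, 88 (21.7%, or 14% of the 627) were also called in the first of these and 100 (24.6%, or 49.0% of the 204) in the second, and 253 (62.3%) in neither. The test of the difference itself passed for 350 genes against ZT19 minus ZT07 (2.82%) and for 428 against ZT23 minus ZT11 (3.45%). The latter count was 741 without ZT03 replicate 1. Since the order of subtraction within a pair is a choice, the tests were repeated with the other pair turned, after the data had been seen: 915 genes (7.38%) differed from ZT07 minus ZT19 and 63 (0.508%) from ZT11 minus ZT23.

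The clock genes took different courses over these pairs. Dbp was 1.39 higher at ZT15 than ZT03, -2.46 for ZT19 minus ZT07 and -2.76 for ZT23 minus ZT11, so its difference between ZT03 and ZT15 was the smallest in size of the 3 pairs. The sizes differed by test (adjusted p = 0.00467 and 0.00845 in the turned comparisons). Nr1d1 was -0.94, -2.12 and -0.63, lower at the later time of every pair. Tef (0.56, -0.25 and -0.57) and Timp4 (1.12, -1.06 and -1.16) had sizes for ZT15 minus ZT03 that did not pass against ZT11 minus ZT23 (adjusted p = 0.976 and 0.958), which does not show that the sizes were equal. Lists moved in the other pairs too. For ZT23 minus ZT11, 10 of 20 glucocorticoid targets passed (median -0.42) and 7 of 9 clock output genes (median -0.53), against 1.65% of all genes. For ZT19 minus ZT07 the numbers were 6 (median -0.13) and 4 (median -0.08), against 5.06%.

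Over the 6 times, the genes that rose tended to be highest, among the 4 times not compared, at ZT11 (91 of 214, 42.5%, against 19.4% of all genes), and those that fell at ZT23 (97 of 192, 50.5%, against 19.5%). Herpud1 and Timp3 had means of 0.27 and 0.37 at ZT11 and -0.53 and -0.42 at ZT23, beside 0.43 and 0.48 at ZT15 and -0.74 and -0.52 at ZT03. G0s2 was -0.30 ± 0.16 (SD, n = 3) at ZT11 and 1.14 ± 0.44 at ZT15. Its differences over the 3 pairs had one sign, 1.66 beside 1.21 for ZT19 minus ZT07 (adjusted p of the departure = 0.475) and 0.67 for ZT23 minus ZT11 (adjusted p = 0.0194), so it was not shown to differ from the first of them. Rrad had its lowest mean at ZT15, -0.80 ± 0.17 against -0.10 ± 0.20 at ZT11 and 0.0039 ± 0.13 at ZT19, and -1.24 for ZT15 minus ZT03 stood beside 0.27 and 0.22 for the other pairs. The departure passed in both orders of subtraction (adjusted p = 0.00019 and 0.000145, turned 0.00584 and 0.0282). Tnfrsf12a (-0.72, -0.18 and 0.07) passed in both orders too (adjusted p = 0.0363 and 0.00177, turned 0.000653 and 0.0449).

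**Figure D4:**
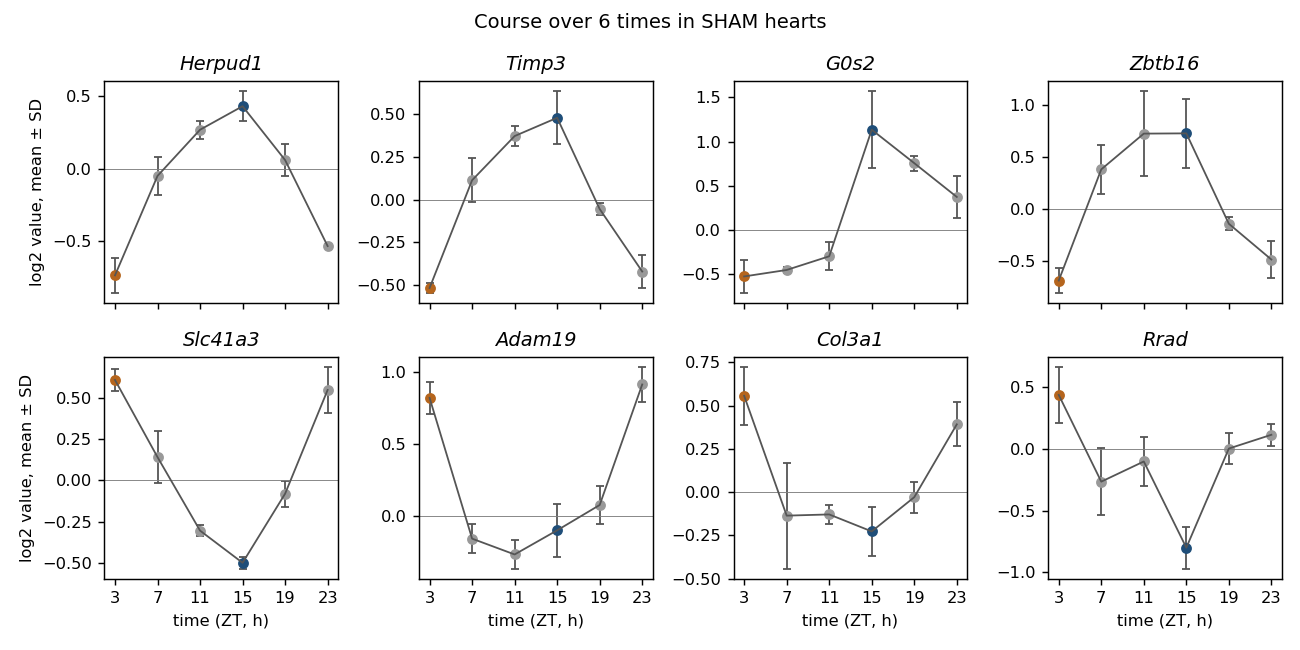
Mean ± SD of 3 SHAM arrays (vertical axis, log2 value) at 6 times (horizontal axis, ZT in hours) for 4 genes that rose and 4 that fell, with ZT03 in brown and ZT15 in blue. Herpud1, Timp3 and Slc41a3 have their extremes at ZT03 and ZT15 with ZT23 and ZT11 next to them, whereas G0s2 stays low through ZT11 and is highest at ZT15, and Rrad is lowest at ZT15.

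The same times were compared in TAC hearts, on 6 arrays that the SHAM comparison does not use. There 13 genes passed (0.105%), 9 higher (0.0726%) and 4 lower (0.0323%), with 1230 at an unadjusted p under 0.05 (9.92%). The count was 1 without ZT03 replicate 2, 2 without ZT03 replicate 1 or ZT15 replicate 3 and 4 without ZT03 replicate 3 of TAC. That last array had an airway marker mean of 1.51, and the median TAC difference of the airway list was -0.45. White adipocyte markers also moved, with means of -0.14, -0.20 and 0.41 at ZT03 and 0.57, 0.56 and 0.87 at ZT15. The mean of the scarce cell type markers was 0.02, 0.06 and 0.09 at ZT03 and 0.05, -0.06 and -0.02 at ZT15 in TAC. What part it has in the TAC values was not tested. Of the 13, 10 had passed in SHAM: Nr1d1 (-1.53 in TAC), Slc41a3 (-0.68), Noct (1.08), Chd6 (0.98), Srsf5 (-0.91), Fmo1 (0.66), Gsta3 (0.62), Gstt1 (0.55), Hsd11b1 (0.55) and Ciapin1 (0.47). Of the genes that rose in SHAM, 199 of 214 (93.0%) were also higher at ZT15 in TAC, where 48.2% of all genes were. Of those that fell, 164 of 192 (85.4%) were lower, against 51.8% of all genes. The median TAC difference was 0.25 for the former and -0.12 for the latter. Values in TAC were smaller in size for 349 of the 406 (86%), against 53.7% of all genes; the choice of genes for a large value in SHAM leans the same way.

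No gene passed the test of the difference between the surgeries in the limma fit over all 36 arrays (0%, with 597 at an unadjusted p under 0.05, 4.82%, and a smallest adjusted p of 0.167). Without TAC ZT03 replicate 3, 6 genes passed, and without SHAM ZT03 replicate 1 or TAC ZT15 replicate 1, 1 did. The genes that share that smallest adjusted p include Dbp (1.39 in SHAM, -0.11 in TAC), Per2 (0.89 and 0.33) and Tnfaip2 (-0.67 and -0.15). The median residual SD was 0.08 in SHAM and 0.09 in TAC. Differences that pass in SHAM and not in TAC are therefore not shown to differ between them. Collagen genes had values in TAC near those in SHAM: Col3a1 -0.71, Col4a1 -0.65 and Col15a1 -0.81, none passing there.

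**Figure D5:**
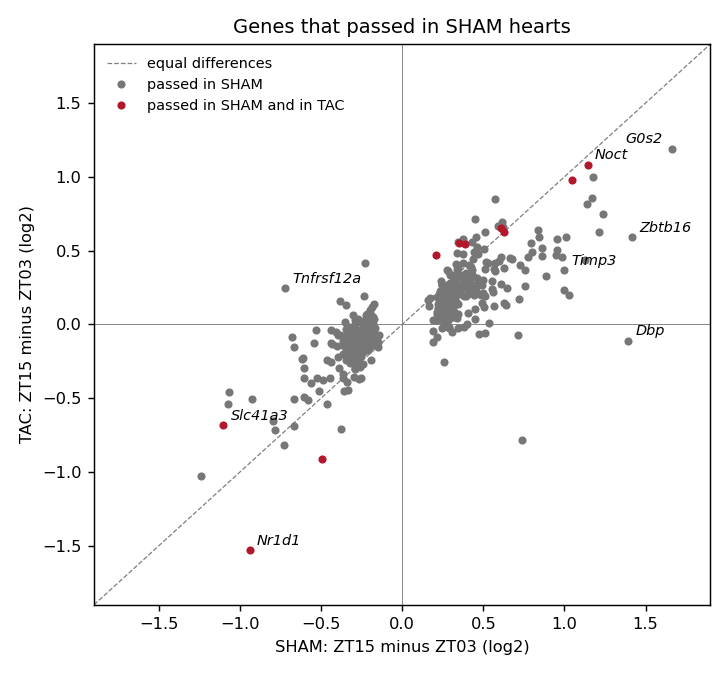
ZT15 minus ZT03 in TAC hearts (vertical axis, log2) against the same in SHAM hearts (horizontal axis, log2) for the 406 genes that passed in SHAM, with the dashed line where both are equal. Red points passed in both, 10 genes, and Dbp (1.39 in SHAM, -0.11 in TAC) and Tnfrsf12a (-0.72 and 0.24) lie farthest from the line among the labelled genes, and the unlabelled point at 0.74 and -0.78 is Gdap10.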

How the data were processed

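RNA of 36 mouse left ventricles was measured on Affymetrix arrays. The authors deposited 1 table of log2-scale values for 22690 probe sets, centred to a median of 0 over the arrays of each surgery. How the arrays were summarised and normalized, and the log base, is not given in the sources used here. Probe sets with 1 gene symbol in the platform annotation were kept (20380 used, 13 controls left out, 691 with several symbols and 1606 with none left out), Entrez identifiers matched for 20351, and values were averaged per gene to 12393 genes, 4956 with several probe sets. Of the 47 named genes that passed and had several probe sets, all probe sets had the same sign for 46. Their sizes could still differ widely, and for Per3 they ran from 2.4e-06 to 0.59. No arrays were identical.

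Groups came from the titles. Group means of the 18 SHAM arrays were fitted with limma 3.58.1 in R 4.3.3 (lmFit, eBayes without a trend), the same was done for the 18 TAC arrays, and all 36 arrays were used for the interaction. The Benjamini-Hochberg adjustment ran over the whole gene table, with a threshold of 0.05, and the fit was tested on simulated data. Genes to name were drawn from the 15 largest rises and falls (clone-like symbols skipped), every measured clock gene, up to 4 members of each other list with the smallest p, and the 8 smallest p of each difference between pairs that passed, 192 in all, of which those that passed are printed with the exception of 1 fall that is not reported here. Other members of lists, and other genes, were named after their values were seen. The members and lists were chosen with earlier results of these data known, and the lists are described by counts and medians without a test. Promoter sequence came from RefSeq for 9887 of the 12393 genes. Alternatives covered scaling, array weights, the eBayes variant, which arrays enter, probe set rules, a fold minimum of 1.5, the replicate number and marker means as covariates. Figures were drawn with matplotlib 3.10.9.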

Additional observations from a re-analysis of the deposited data

Results flagged for a closer look

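The difference between ZT15 and ZT03 departed, by a test of the departure itself, from the difference between another pair of SHAM times. The genes given are the up to 8 with the smallest p in each such limma test, and the values are departures on the log2 scale. Against ZT19 minus ZT07 they were Dbp (3.85), Nr1d2 (1.58), Per2 (1.03), Tcap (1.70), Tef (0.81), Timp3 (1.16), Tspan4 (1.6) and Usp2 (1.37). Against ZT23 minus ZT11 they were Adam19 (-2.11), Dbp (4.15), Herpud1 (1.97), Slc41a3 (-1.95), Tef (1.14), Timp3 (1.79), Tspan4 (1.67) and Usp2 (1.87). In each of these genes the sign of ZT15 minus ZT03 was opposite to that of the other pair subtracted in that order. Tcap, for example, was 0.64 for ZT15 minus ZT03, -1.06 for ZT19 minus ZT07 and -1.38 for ZT23 minus ZT11. With the second pair turned to ZT11 minus ZT23, the adjusted p was 0.178 for Herpud1, 0.339 for Slc41a3, 0.422 for Adam19, 0.578 for Usp2 and 0.00845 for Dbp.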

How the results depend on the processing

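Of 90 named genes that passed, 25 passed under all 23 alternatives, 65 lost the call under at least 1 and none changed sign; 51 lost it with the covariate for scarce cell types, an alternative chosen after seeing the data, as were the adipocyte and atrial covariates, the fit without both ZT03 replicates 2 and 3 and the turned pairs. The 406 genes (214 higher, 192 lower) of ZT15 minus ZT03 numbered 2927 with array weights (1065 and 1862, a fit that did not fully converge), 194 from the 6 arrays alone (121 and 73), 190 from all 36 arrays (109 and 81) and 66 with the fold minimum (47 and 19). They numbered 620, 57 and 128 without replicate 1, 2 or 3 of every SHAM group (346 and 274, 42 and 15, 89 and 39), 88 with the scarce cell type covariate (58 and 30) and 103 without both ZT03 replicates (63 and 40). The number lower was 115 after quantile normalization, 122 after median centring and 120 with the adipocyte and atrial covariates. In the weighted SHAM fit, ZT03 replicate 2 had a weight of 4.08, against 0.34 and 0.37 for replicates 1 and 3. The ZT03 mean of that fit, and each count from it, thus rested mostly on 1 array. Leaving out 1 array without weights gave 211 to 1235 genes (127 to 564 higher, 84 to 671 lower). The cause of these shifts was not tested.

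In TAC the 13 genes became 8 after quantile normalization, 3 after median centring, 766 with array weights and 8 with the eBayes trend on mean values. They numbered 1 to 18 with 1 array left out. Array weights gave 76 genes for the difference between surgeries (0 to 6 with 1 array left out), 1446 for ZT19 minus ZT07 (353 to 431), 394 for ZT23 minus ZT11 (108 to 185), 1099 for the departure from ZT19 minus ZT07 (249 to 461; 915 turned) and 1622 from ZT23 minus ZT11 (311 to 741; 63 turned).

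Among genes that did not pass, signs turned as follows. Arntl2 was 0.027 after quantile normalization, 0.011 after median centring, 0.066 with weights, 0.023 without every replicate 1, 0.015 with the adipocyte and atrial covariates and -0.088 to 0.021 with 1 array, or both ZT03 replicates 2 and 3, left out. Bhlhe41 was 0.0039 after median centring and 0.059 with the scarce cell type covariate. Bhlhe40 was 0.026 with weights, 0.0040 without every replicate 2 and -0.14 to 0.059 with arrays left out in the same way. Nfil3 was 0.011 with weights, 0.11 without every replicate 3 or with the scarce cell type covariate, and -0.18 to 0.11 with arrays left out. Csnk1e was -0.044 with weights, and Per1 was -0.014 to 0.25 with arrays left out.

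With the replicate number as a block, 469 genes passed (256 higher, 213 lower). Same-numbered ZT03 and ZT15 arrays correlated at 0.117, 0.056 and 0.046 in their deviations, and each array correlated best with its own number, a hint from the data and not the design. Depth does not apply to arrays; 3 a group limit the precision.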

Other observations

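Genes of the endothelium went in both directions. They were picked after their values were seen and carry no test as a group. Aqp1, a water channel of capillary endothelium, was -0.26, -0.29 and -0.32 at ZT03 and 0.41, 0.44 and 0.47 at ZT15 (0.73 ± 0.06, adjusted p = 1.22e-06). Car4, a carbonic anhydrase on the capillary surface, rose by 0.59 ± 0.09, Lyve1, a hyaluronan receptor of lymphatic vessels and some macrophages, by 0.95 ± 0.11, Thbd (thrombomodulin) by 0.37 ± 0.06 and Sox17, an arterial transcription factor gene, by 0.42 ± 0.08. Nrp1 and Nrp2, co-receptors of VEGF, fell by 0.40 and 0.30. Cd93 fell by 0.40, Itga6 (integrin alpha 6) by 0.58 and Mcam by 0.34. Of the 11 endothelial markers listed for the cell type check only Kdr passed, and their median was -0.09.

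Genes of detoxification and redox metabolism were among those that rose, again picked after their values were seen. Xdh (xanthine dehydrogenase) was -0.28, -0.39 and -0.79 at ZT03 and 0.29, 0.58 and 0.54 at ZT15 (0.95 ± 0.13, adjusted p = 0.000246). The flavin monooxygenase genes Fmo1 and Fmo2 rose by 0.61 ± 0.09 and 0.56 ± 0.06, the glutathione transferase genes Gsta3 and Gstt1 by 0.63 ± 0.07 and 0.39 ± 0.07, the epoxide hydrolase gene Ephx1 by 0.45 ± 0.08 and the carboxylesterase gene Ces1d by 0.57 ± 0.11. Fmo1, Gsta3 and Gstt1 passed in TAC as well, with 0.66, 0.62 and 0.55. Of 22 listed genes of oxidative stress defence, 1 rose (Nfe2l2, which encodes NRF2, by 0.53 ± 0.10, lost without ZT15 replicate 2), and the median was 0.07.

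Gdap10 was 0.74 in SHAM (adjusted p = 0.0156) and -0.78 in TAC, the most opposed pair of values among the 406 genes, and the test of that difference gave an adjusted p of 0.745.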
